A study of Mus musculus with 19 samples.

Results

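RNA was compared between mouse lung adenocarcinoma (LUAD) organoids and organoids of alveolar type 2 (AT2) cells, using every RNA library of either kind, 4 of LUAD and 3 of AT2, out of 19 samples in the series. Per the labels, both kinds were C57BL/6, were grown in a custom organoid medium, were plated for 48 hours on plates washed with matrigel and received cycloheximide, an inhibitor that stalls ribosomes in mid-elongation, at 100 µM for 5 minutes. The labels of the RNA libraries give no genotype, age, tumour driver or Cre line, and the ORF libraries of the LUAD organoids are titled KP. The series describes 3 independent tumour-derived organoids and 2 independent AT2 cultures, fewer than the RNA libraries of each kind. The labels do not say which libraries share a culture, so a p-value here measures the spread between libraries, and part of that spread may be technical.

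AT2 cells line the lung alveolus, make and recycle surfactant, and act as progenitors that renew the gas-exchange epithelium. They deposit part of the basement membrane they rest on, seal the airspace with tight junctions and draw sodium and water out of it. Lung adenocarcinoma can arise from them and is known for sustained proliferation and for a partial or complete loss of alveolar identity.

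Each library's table held estimated counts for 118489 transcripts. Counts were summed to a gene where the series' lists of translated open reading frames (ORFs) name the gene of the transcript, which gave 7261 genes from 22509 transcripts and held from 65.0 to 70.0% of the counts of a library. Of these genes 4110 come from ORF lists of LUAD alone, 2597 from both kinds and 554 from AT2 alone, so the genes measured lean towards those translated in LUAD. Depth was 32921498, 33203742, 29285160 and 27181932 estimated counts in LUAD libraries 1 to 4, and 9570667, 10233520 and 4122819 in AT2 libraries 1 to 3. Levels are CPM, counts of the genes measured scaled to a common library total with TMM factors. Differences are log2 fold changes of LUAD over AT2 from edgeR's quasi-likelihood test, ± a standard error (SE). The test gives no SE, so it was derived as the size of the fold change over the square root of the F statistic. This SE does not cover how loosely a fold change is set where a kind held few or no counts of the gene.

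The libraries fell into sets that cut across the kinds. The Spearman correlation of log2 CPM over genes was 0.992 between LUAD libraries 1 and 2 and 0.992 between LUAD libraries 3 and 4, and 0.950 to 0.957 between these pairs. It was 0.978 between AT2 libraries 1 and 2, while AT2 library 3, the shallowest, stood at 0.897 and 0.900 from them. AT2 library 3 was also the AT2 library nearest to LUAD in 62.7% of the 1261 genes called higher in LUAD with counts in AT2, and in 71.3% of the 1253 called lower. Between the kinds, AT2 library 3 correlated at 0.843 and 0.845 with LUAD libraries 1 and 2 and at 0.844 and 0.846 with LUAD libraries 3 and 4. Across the kinds the sets rest on shared deviations from each kind's mean, given below. The sets were drawn from these same levels and are not in the labels, so fits that use them are not an independent check. With the set of LUAD libraries 1 and 2 and AT2 libraries 1 and 2 against the others as a term of the fit, edgeR called 3737 genes (1981 higher and 1756 lower in LUAD). With these 4 libraries alone it called 4052. Of 116 counts of pathway list members called higher or lower, 33 moved by over 1.5 times with the set as a term and 44 with these 4 libraries alone.

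Of 6937 genes with enough counts to be tested, 2575 (37.1%) differed at a Benjamini-Hochberg adjusted p under 0.05. LUAD was higher in 1322 (19.1%) and lower in 1253 (18.1%), and the median log2 fold change over all genes tested was 0.035. The balance differed between the ORF lists that genes come from. Among 3870 genes tested from ORF lists of LUAD alone 808 were higher and 545 lower, among 495 from AT2 alone 52 were higher and 144 lower, and among 2572 from both 462 were higher and 564 lower. The fold change also fell with transcript length (Spearman rho -0.256 across genes, which are not independent replicates). With each library's length trend removed 1369 genes were called higher and 1392 lower, and 17 of the 116 list counts moved by over 1.5 times. The difference was larger than 2-fold in 1706 of the 2575 genes called and larger than 16-fold in 198, of which LUAD was higher in 147 and lower in 51. Of the genes called higher 61 had no count in any AT2 library, and 7 of those called lower had none in any LUAD library. Every AT2 library was shallower than every LUAD library, so a count of 0 was easier to reach in AT2. The genes tested also include 3870 from ORF lists of LUAD alone against 495 from AT2 alone. A gene silent in LUAD thus had fewer ways to be measured than a gene silent in AT2. The part of this choice of genes in the splits over 16-fold and at 0 was not tested. Without AT2 library 1 or 2 the test called 1684 and 1632 genes. Scaling on all transcripts, in place of the genes measured, moved the median by 0.164 and gave 1798 higher and 912 lower calls, 66.3% of them higher in place of 51.3%. Each direction below is therefore set against the measured genes as a whole. The levels of LUAD and AT2 libraries did not overlap in 45.4% of the genes tested, whether called or not. Where a list below has 0 members called in a direction by edgeR, DESeq2 and limma called 0 there too, and at an unadjusted p under 0.05 edgeR gave 0 as well, except for 1 tRNA synthetase. With LUAD libraries 1 and 2 and AT2 libraries 1 and 2 alone, edgeR called 3 lysosome genes and 2 ephrin genes higher and 3 tRNA synthetases lower. With the library set as a term it called 1 lysosome gene higher, and 1 tRNA synthetase and 1 DNA replication gene lower. With the length trend removed it called 1 ephrin gene higher, and without AT2 library 3 it called 1 tRNA synthetase lower.

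**Figure D1:**
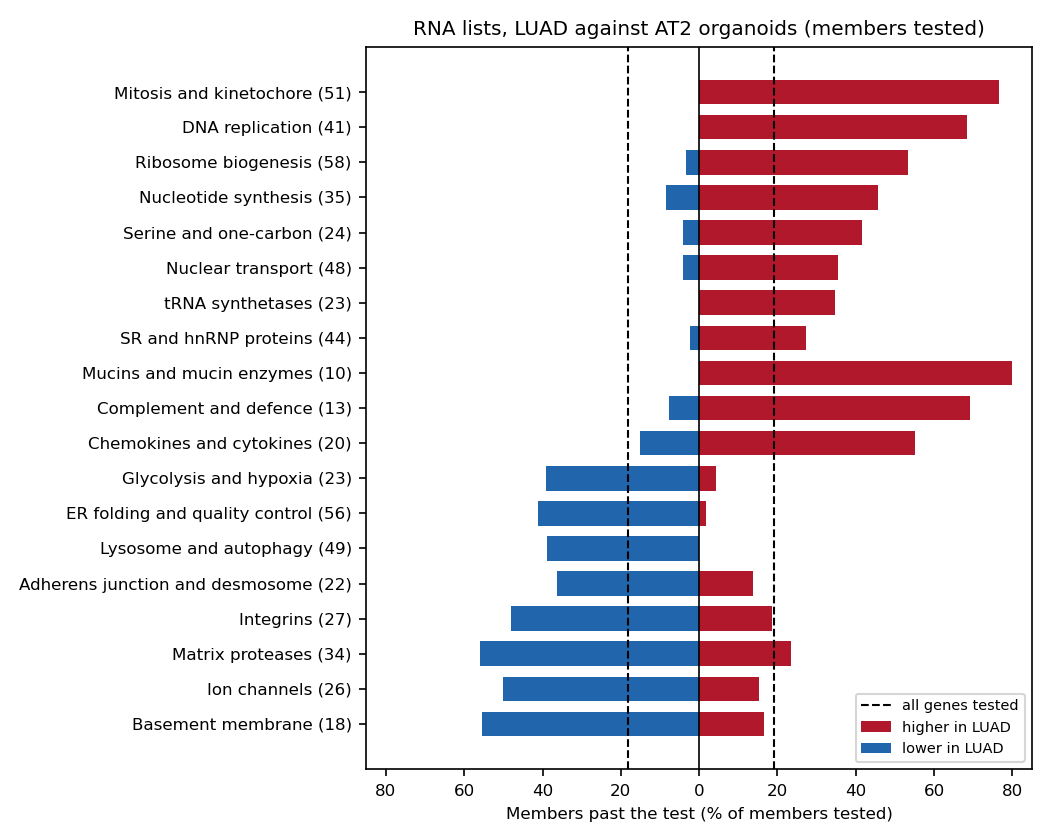
Members past the test in a selection of the 58 pathway lists, in percent of the members tested in each (their number in brackets). Members higher in LUAD are to the right in red and members lower in LUAD to the left in blue. Lists with shares near those of all genes tested, such as TGF-beta and BMP, iron and metal, and chromatin genes, are not shown. Dashed lines mark the shares over all genes tested, 19.1% higher and 18.1% lower. Mitosis, DNA replication, tRNA synthetase and mucin genes had no bar on the left, and lysosome genes had none on the right.

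Trp53, which encodes the tumour suppressor p53, had 0, 0, 0 and 4.06 CPM in the LUAD libraries, against 123, 126 and 238 CPM in the AT2 libraries. LUAD libraries 1 to 3 thus held no count of its ORF-listed transcripts and LUAD library 4 a trace (log2 fold change -7.40 ± 1.45, edgeR adjusted p = 0.00577). Cdkn1a, the p21 inhibitor of cyclin-dependent kinases that p53 induces, had 44.6, 37.8, 81.3 and 89.6 CPM in the LUAD libraries, against 782, 789 and 569.6 CPM in the AT2 libraries (log2 fold change -3.49 ± 0.34, edgeR adjusted p = 0.000242). Cdkn2a, whose locus encodes the p16 and Arf tumour suppressors, had 439, 418, 426 and 492 CPM in the LUAD libraries, against 63.6, 54.4 and 30.3 CPM in the AT2 libraries. Every LUAD library stood above every AT2 library in Cdkn2a and below every AT2 library in Trp53 and Cdkn1a (log2 fold change 3.15 ± 0.26, edgeR adjusted p = 0.000148). The sestrins Sesn2 and Sesn3, which restrain growth signalling through mTOR, were lower in LUAD, with log2 fold changes of -3.55 and -2.24 (edgeR adjusted p = 2.55e-05 and 0.000111). Of the list of p53 targets, 7 of 18 members tested beside Trp53 itself were lower in LUAD and 2 were higher, led by Plk3, a polo-like kinase (log2 fold change 1.80 ± 0.42, edgeR adjusted p = 0.0121). The higher count was 4 without AT2 library 3 and 1 without any other library.

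The labelled kinds were checked against cell type markers. Of 23 AT2 markers listed 11 were tested, and Sftpc was not among them. Of these 11, 8 were lower in LUAD and 1, the mucin Muc1, was higher. Of 20 markers of alveolar type 1 (AT1) cells, the flat cells that AT2 cells give rise to, 10 were tested, without Ager, Hopx or Pdpn. Of these 10, 7 were lower and 2, the caveolins Cav1 and Cav2, were higher. Ctsh, a cathepsin of the surfactant-processing compartment, had 429, 456, 464 and 452 CPM in the LUAD libraries, against 5753, 6379 and 5709 CPM in the AT2 libraries. It was thus present in every library and lower in each LUAD library (log2 fold change -3.72 ± 0.13, edgeR adjusted p = 4.91e-06). Epcam, an epithelial surface protein, was detected in all libraries, at 1525, 1646, 1604 and 1597 CPM in the LUAD libraries, against 779, 819 and 1465 CPM in the AT2 libraries, and missed the threshold (log2 fold change 0.64 ± 0.23, edgeR adjusted p = 0.0591). It was called higher without AT2 library 3 and with the replicate number as a block (edgeR adjusted p = 0.000575 and 0.0449). Among markers of other cells, none for club or endothelial cells was among the genes measured, and 1 ciliated, 1 neuroendocrine, 3 basal, 3 fibroblast and 3 macrophage or leukocyte markers were. The ciliated marker Tubb4b passed the test as higher in LUAD (log2 fold change 1.15 ± 0.32, edgeR adjusted p = 0.0256), and lost the call without AT2 library 1 or 2 or LUAD library 3 or 4 (edgeR adjusted p from 0.0635 to 0.0981). The neuroendocrine marker Uchl1 missed the threshold. Of 22 macrophage and leukocyte markers 3 were measured, all of them listed in ORF tables of LUAD alone. The summed level of these, Ptpn22, Mrc1 and Cd14, was 300.2, 288, 245 and 261 CPM in the LUAD libraries, against 6.78, 12.2 and 19.4 CPM in the AT2 libraries, with Ptpn22 at 0 in every AT2 library. Of the fibroblast markers Bgn was higher, Sparc lower and Fn1 not past the test, and of the basal markers Lamb3 was lower. In bulk RNA, fewer cells of a type and less RNA per cell cannot be told apart.

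**Figure D2:**
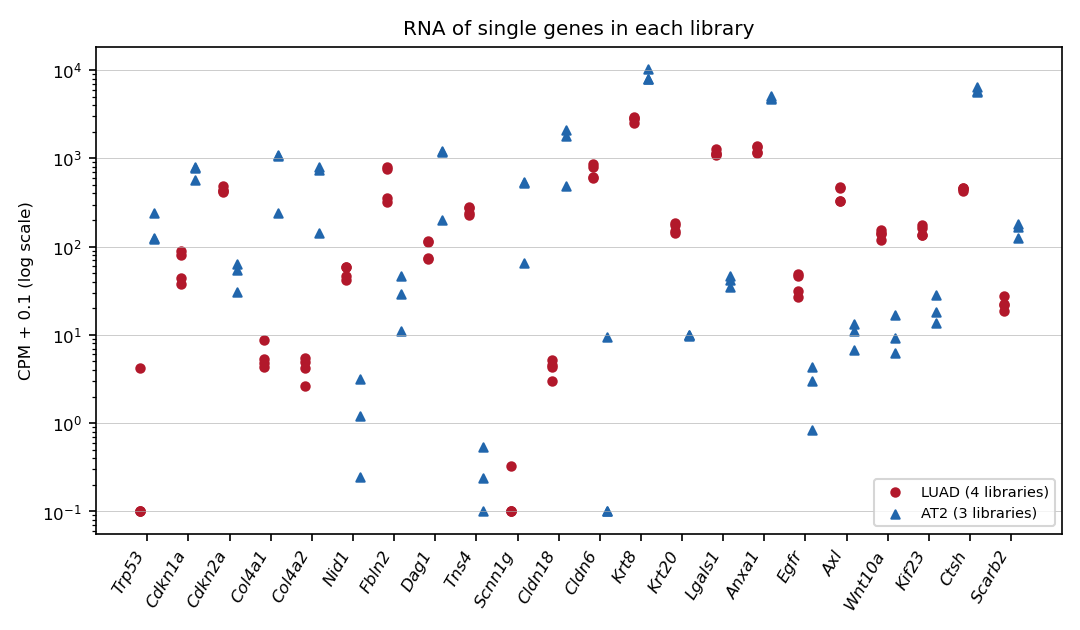
CPM in each library for genes described in the text, on a log axis with 0.1 added, as red circles for the 4 LUAD libraries and blue triangles to their right for the 3 AT2 libraries. The kinds do not overlap for any gene shown, and the AT2 triangle nearest the LUAD circles is often AT2 library 3, as in Col4a1, Dag1 and Scnn1g.

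Cell division genes stood higher in LUAD as a group. DNA replication begins when the origin recognition complex and Cdt1 load the MCM helicase, which Cdc45 and the GINS proteins then activate, and mitosis follows through cyclin B, the spindle motors and the kinetochore. Of 41 DNA replication genes tested 28 were higher in LUAD and 0 lower, with a median log2 fold change of 1.30. Of 51 mitosis genes 39 were higher and 0 lower, with a median of 1.90. Fewer were called with a library left out: the replication genes called higher numbered 16 without LUAD library 3, 15 without LUAD library 4, 15 without AT2 library 1 and 14 without AT2 library 2, and the mitosis genes 25 without AT2 library 2.

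The promoters of the mitosis genes shared letters that the list did not use. The cell cycle genes homology region (CHR), TTTGAA, and CCAAT boxes, which the factor NF-Y binds, are known elements of genes transcribed in the G2 phase and mitosis. RefSeq promoters (build GRCm38.p6, 250 bases before to 50 after the start) were found for 44 of the 51 mitosis genes. Searched on both strands, TTTGAA was in 34 of them (77.3%), against 10.9% of the promoters of genes tested and 18.1% of all 27025 promoters. CCAAT and TTTGAA stood together in 28 (63.6%), against 4.54% and 7.01%. Within the list, the mitosis genes called higher held TTTGAA in 25 of 33 promoters (75.8%). The E2F letters TTTCCCGC or TTTGGCGC were in 11 of 34 DNA replication promoters (32.4%), against 3.54% of the promoters of genes tested. A match describes letters and is not evidence of binding. The promoters of Kif23 and Ccnb2, among the mitosis genes of the largest difference, are shown 5′ to 3′ from 220 bases before to 30 after the annotated start, at chr9:61946770-61947019 and chr9:70421525-70421774 on the minus strand, with TTTGAA and CCAAT (or its reverse complement ATTGG) in capitals.
Kif23: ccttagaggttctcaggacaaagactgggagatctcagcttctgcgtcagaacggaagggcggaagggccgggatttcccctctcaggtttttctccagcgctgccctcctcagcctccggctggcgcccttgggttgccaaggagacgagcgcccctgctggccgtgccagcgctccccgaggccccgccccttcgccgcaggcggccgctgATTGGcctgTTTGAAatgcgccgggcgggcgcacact
Ccnb2: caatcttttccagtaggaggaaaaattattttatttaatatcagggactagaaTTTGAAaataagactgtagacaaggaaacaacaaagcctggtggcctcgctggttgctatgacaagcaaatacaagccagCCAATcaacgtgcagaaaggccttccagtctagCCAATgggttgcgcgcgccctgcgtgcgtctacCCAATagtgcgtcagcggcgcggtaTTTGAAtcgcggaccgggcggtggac
In Kif23 the matches lie on either side of the start, and in Ccnb2 one TTTGAA lies just past the start behind a row of 3 CCAAT boxes.

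Kif23, the motor of the central spindle that completes cell separation, had 135, 135, 162 and 175 CPM in the LUAD libraries, against 13.7, 18 and 27.9 CPM in the AT2 libraries (log2 fold change 2.96 ± 0.27, edgeR adjusted p = 0.000199). Cenpe, the kinetochore motor that moves chromosomes to the spindle equator, had 42.7, 35.4, 29.9 and 29.9 CPM in the LUAD libraries, against 3.54, 3.87 and 7.37 CPM in the AT2 libraries (log2 fold change 2.87 ± 0.34, edgeR adjusted p = 0.000648). Ccnb2, a B-type cyclin that drives entry into mitosis, had 221, 233, 336 and 334 CPM in the LUAD libraries, against 19.4, 20.6 and 86.9 CPM in the AT2 libraries. In all of these the lowest LUAD library stood above the highest AT2 library, which was AT2 library 3 each time (log2 fold change 2.78 ± 0.56, edgeR adjusted p = 0.00649, for Ccnb2). Among replication genes the same holds for Gins1, a subunit of the active helicase, with 61.6, 53.2, 87.3 and 77.5 CPM in the LUAD libraries, against 5.75, 12 and 13.6 CPM in the AT2 libraries (log2 fold change 2.77 ± 0.35, edgeR adjusted p = 0.000794). Tipin, which with Timeless holds the replication fork together, had 77.1, 86.4, 167 and 157 CPM in the LUAD libraries, against 22.5, 12.4 and 34.1 CPM in the AT2 libraries (log2 fold change 2.43 ± 0.43, edgeR adjusted p = 0.00385). LUAD libraries 3 and 4 held about the same level of Tipin as each other and more than LUAD libraries 1 and 2.

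**Figure D3:**
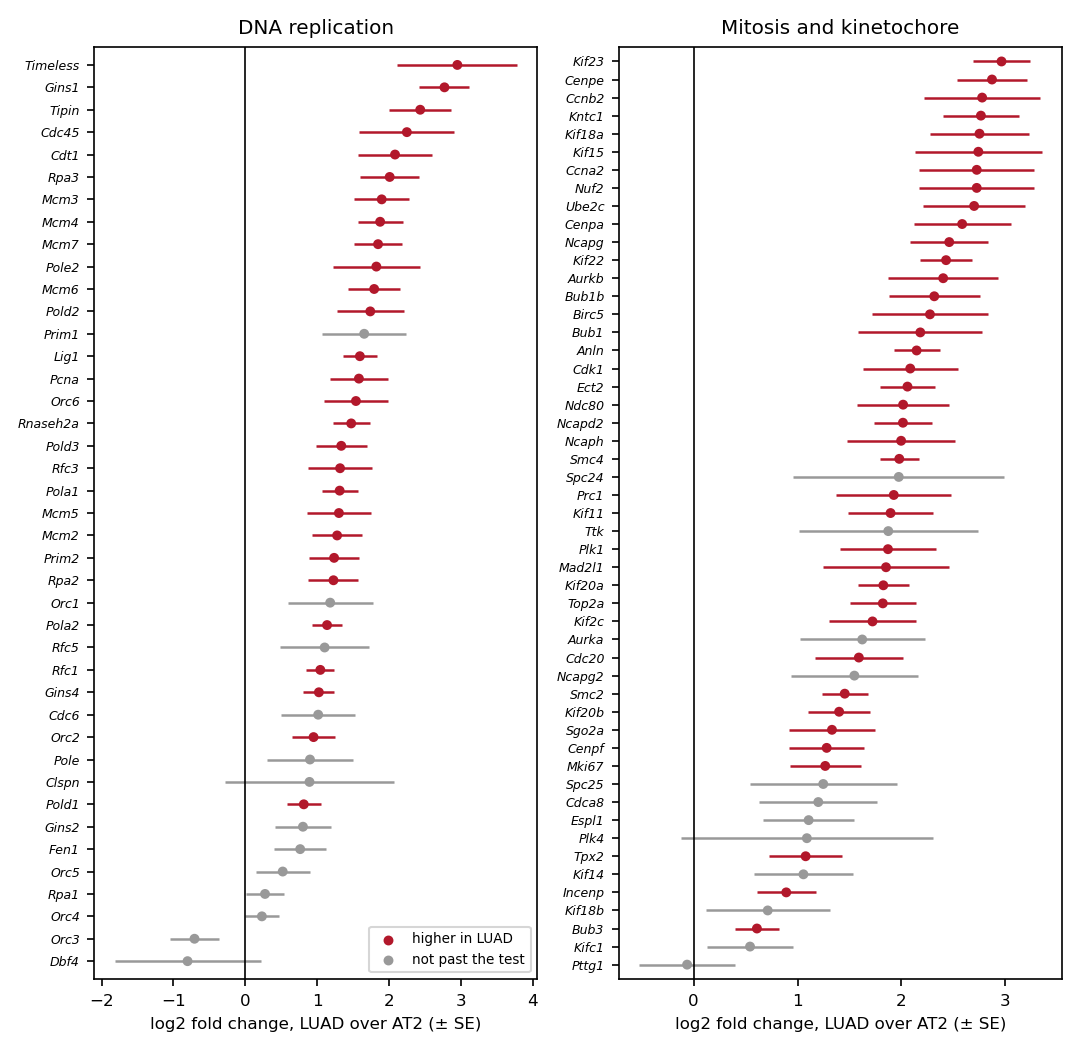
Log2 fold change of LUAD over AT2 with the SE derived from its test, for each tested member of the DNA replication list (left) and the mitosis and kinetochore list (right), ordered by size. Red points are higher in LUAD and grey points did not pass the test. Most points lie right of 0, with Gins1 and Tipin near the top on the left and Kif23, Cenpe and Ccnb2 on the right.

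Regulators of the entry into S phase moved in both directions. Of 26 tested 9 were higher, among them E2f8, a repressor of E2F targets (log2 fold change 2.69 ± 0.37, edgeR adjusted p = 0.00121), the kinase Cdk6 (log2 fold change 2.38 ± 0.33, edgeR adjusted p = 0.00114) and the phosphatase Cdc25b (log2 fold change 1.97 ± 0.30, edgeR adjusted p = 0.00181). The 4 lower ones were led by Cdkn1a and Mxd1, a partner of Max (log2 fold change -1.23 ± 0.22, edgeR adjusted p = 0.00403), and the lower count was 2 without LUAD library 3, 2 without LUAD library 4, 2 without AT2 library 1, 2 without AT2 library 2 and 2 with all-transcript scaling. Of 38 DNA repair genes 10 were higher and 2 lower, and the higher count was 6 without LUAD library 3, 6 without LUAD library 4 and 16 without AT2 library 3. Exo1, the exonuclease of mismatch repair and end resection, led the higher ones (log2 fold change 5.05 ± 0.78, edgeR adjusted p = 0.00201), and Brca1, of homologous recombination, was among them (log2 fold change 2.22 ± 0.47, edgeR adjusted p = 0.0078). The lower ones were Ercc5, an endonuclease of nucleotide excision repair, and Lig4, the ligase of end joining, with log2 fold changes of -1.46 and -1.08.

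Lists that supply growth were called higher more often than lower, and their counts moved when single libraries were left out. Of 58 ribosome biogenesis genes 31 were higher and 2 lower. Higher were 20 without LUAD library 4, 19 without AT2 library 1 and 18 without AT2 library 2. Lower were 1 without LUAD library 4, 2 without AT2 library 3 and 0 without any other library or with all-transcript scaling. Of 35 nucleotide synthesis genes 16 were higher and 3 lower. Higher were 8 without LUAD library 3, 7 without LUAD library 4, 5 without AT2 library 1 and 5 without AT2 library 2. Of 48 nuclear transport genes 17 were higher and 2 lower. Higher were 11 without LUAD library 3, 10 without LUAD library 4, 8 without AT2 library 1 and 9 without AT2 library 2. Lower were 4 without AT2 library 3 and 5 with the replicate number as a block. The 23 tRNA synthetases, which charge tRNAs with amino acids, gave 8 higher and 0 lower. Higher were 5 without LUAD library 1, 3 without LUAD library 3, 2 without LUAD library 4, 1 without AT2 library 1, 1 without AT2 library 2 and 14 with all-transcript scaling. For 44 SR and hnRNP splicing proteins these were 12 and 1. Higher were 7 without LUAD library 4, 7 without AT2 library 1, 7 without AT2 library 2 and 21 with all-transcript scaling. Lower ranged from 0 to 3 over the libraries left out. Tk1, the thymidine kinase of the salvage pathway, had 77.8, 72.2, 173 and 172 CPM in the LUAD libraries, against 12.4, 18.1 and 39.2 CPM in the AT2 libraries (log2 fold change 2.45 ± 0.51, edgeR adjusted p = 0.00745). Pnp, the phosphorylase that breaks down purine nucleosides, had 273, 272, 315 and 339 CPM in the LUAD libraries, against 57.3, 90.3 and 87.7 CPM in the AT2 libraries (log2 fold change 1.94 ± 0.21, edgeR adjusted p = 0.000384). Nt5e, the surface enzyme CD73 that makes adenosine, went the other way, with 4.05, 2.56, 0.269 and 1.02 CPM in the LUAD libraries, against 181, 198 and 207 CPM in the AT2 libraries, so each LUAD library was below each AT2 library (log2 fold change -6.59 ± 0.70, edgeR adjusted p = 0.000371). Farsb, a subunit of the phenylalanine tRNA synthetase, had 119.7, 133, 223 and 221 CPM in the LUAD libraries, against 61.7, 78.6 and 77.6 CPM in the AT2 libraries (log2 fold change 1.26 ± 0.27, edgeR adjusted p = 0.00839). Nup37, of the nuclear pore's outer ring, led the transport genes (log2 fold change 3.32 ± 0.65, edgeR adjusted p = 0.00565), and Ipo13, an importin, led those lower (log2 fold change -1.54 ± 0.33, edgeR adjusted p = 0.00843).

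Of 24 genes of serine and one-carbon metabolism 10 were higher and 1 lower. Higher were 6 without AT2 library 1 and 6 without AT2 library 2. Cth, which makes cysteine from cystathionine, had 21.8, 20.3, 20 and 19.6 CPM in the LUAD libraries, against 0 CPM in each AT2 library. It was at least 113-fold higher in LUAD against a floor of 3 counts over the AT2 libraries together (edgeR adjusted p = 0.000198). Aldh1l1, which oxidises formyl-tetrahydrofolate, was also at 0 in AT2 and at least 68.1-fold higher by the same floor (edgeR adjusted p = 0.00277). Shmt1, which moves a carbon unit from serine to folate in the cytosol, had 30.4, 32.2, 46.7 and 52.3 CPM in the LUAD libraries, against 14.1, 7.87 and 11.6 CPM in the AT2 libraries (log2 fold change 1.85 ± 0.32, edgeR adjusted p = 0.00315). Mthfd1l, a mitochondrial enzyme that makes formate, was higher as well (log2 fold change 1.79 ± 0.33, edgeR adjusted p = 0.00426). Slc38a1, a transporter of glutamine and other neutral amino acids, was the member lower in LUAD, with 12.9, 16.1, 11.5 and 10.8 CPM in the LUAD libraries, against 53.9, 50.4 and 68.3 CPM in the AT2 libraries (log2 fold change -2.16 ± 0.22, edgeR adjusted p = 0.000317).

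Genes of central carbon metabolism were called in both directions. Of 23 genes of glycolysis and the hypoxia response 9 were lower and 1 higher. Lower were 5 without LUAD library 3, 5 without AT2 library 1 and 4 without AT2 library 2. Higher were 0 without AT2 library 2, 2 without AT2 library 3 and 3 with all-transcript scaling. Ldhb, the lactate dehydrogenase subunit that favours lactate oxidation, had 0.33, 3.31, 0.215 and 0 CPM in the LUAD libraries, against 159, 173 and 86.1 CPM in the AT2 libraries, so LUAD libraries were near 0 (log2 fold change -7.10 ± 1.08, edgeR adjusted p = 0.00188). Of 36 genes of the pentose phosphate pathway and the NRF2 response 8 were higher and 9 lower. Rpia, which makes ribose 5-phosphate, had 100, 90.6, 156 and 163 CPM in the LUAD libraries, against 8.1, 14.9 and 22.5 CPM in the AT2 libraries (log2 fold change 3.11 ± 0.40, edgeR adjusted p = 0.000877). Gsr, the glutathione reductase, had 531, 624, 543 and 501 CPM in the LUAD libraries, against 139.7, 109 and 138 CPM in the AT2 libraries (log2 fold change 2.09 ± 0.17, edgeR adjusted p = 0.000119), while Nfe2l2, the gene of NRF2, was lower (log2 fold change -0.96 ± 0.14, edgeR adjusted p = 0.0016). In the tricarboxylic acid cycle list 8 of 32 were higher, with the isocitrate dehydrogenases Idh1, Idh2 and Idh3b at log2 fold changes of 1.26, 1.05 and 0.96, and 4 lower (7 with the length trend removed), among them Aco1, an enzyme that also binds iron-responsive RNA, at -2.22. Gls2, a glutaminase, was at 0 in AT2 and at least 55.1-fold higher (edgeR adjusted p = 0.00181). Of 27 cholesterol genes 9 were higher and 4 lower. The synthesis enzymes Fdps, Msmo1, Acat2 and Fdft1 were among the higher ones and Npc2, a lysosomal carrier of cholesterol, among the lower ones.

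Genes of surfactant and lipid metabolism were called in both directions. Of 29 members 9 were lower, among them Lpcat1, which makes the saturated phosphatidylcholine of surfactant (log2 fold change -3.32 ± 0.47, edgeR adjusted p = 0.00127), the desaturase Scd1 (log2 fold change -3.09 ± 0.25, edgeR adjusted p = 0.000137) and surfactant protein D, Sftpd (log2 fold change -3.31 ± 0.23, edgeR adjusted p = 8.06e-05). Higher were 4, Hilpda, Dgat2, the acyl-CoA synthetase Acsl3 and Chka, a choline kinase of phosphatidylcholine synthesis, and the higher count was 7 without AT2 library 3. Chka was not called without LUAD library 1 or 2 or AT2 library 1 or with limma on TPM (edgeR and limma adjusted p from 0.0507 to 0.122). Hilpda, a droplet protein that inhibits lipolysis, had 161, 156, 211 and 189 CPM in the LUAD libraries, against 9.13, 8.98 and 8.92 CPM in the AT2 libraries (log2 fold change 4.31 ± 0.20, edgeR adjusted p = 1.16e-05). Dgat2, which makes triglyceride, had 55.9, 56.9, 59 and 58.5 CPM in the LUAD libraries, against 1.33, 4.7 and 8.92 CPM in the AT2 libraries (log2 fold change 3.66 ± 0.52, edgeR adjusted p = 0.00134).

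Genes of the endoplasmic reticulum (ER), where secreted proteins fold, stood lower in LUAD. Of 56 tested 23 were lower and 1, the transcription factor Atf4, was higher, with a median log2 fold change of -0.54. The lower count was 14 without AT2 library 1 and 13 without AT2 library 2, and Atf4 lost its call without AT2 library 1 or 2 or LUAD library 3 or 4 and with the length trend removed (edgeR adjusted p from 0.0554 to 0.135). Edem2 and Edem3, mannosidases that mark misfolded glycoproteins for disposal, were both lower. Edem2 had 82.7, 97.5, 123 and 96.6 CPM in the LUAD libraries, against 371, 423 and 344 CPM in the AT2 libraries (log2 fold change -1.92 ± 0.17, edgeR adjusted p = 0.000182), and Edem3 had 7.68, 7.24, 4.63 and 3.05 CPM in the LUAD libraries, against 49.4, 42 and 12 CPM in the AT2 libraries (log2 fold change -2.62 ± 0.52, edgeR adjusted p = 0.00604). Creb3, a transcription factor anchored in the ER membrane, had 50.2, 41.6, 38.6 and 41.4 CPM in the LUAD libraries, against 262, 239 and 142 CPM in the AT2 libraries (log2 fold change -2.32 ± 0.23, edgeR adjusted p = 0.000273). Pdia5, a disulfide isomerase, followed (log2 fold change -2.18 ± 0.38, edgeR adjusted p = 0.0037).

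The ER stress response element (ERSE), CCAAT followed by 9 bases of any kind and CCACG, through which chaperone genes respond to unfolded protein, was rare among promoters. It was in 34 of 27025 (0.126%) and in 8 promoters of genes tested, of which 7 belong to the ER list. Of these genes Hspa5, Calr, Canx, Dnajc3 and Syvn1 were lower in LUAD, with log2 fold changes of -0.58, -1.05, -0.66, -1.19 and -1.02. Without AT2 library 1 or 2 Calr alone of them was called (edgeR adjusted p from 0.0513 to 0.131 for the others). With all-transcript scaling Hspa5, Canx and Syvn1 were not called either (edgeR adjusted p = 0.103, 0.054 and 0.0518), and Dnajc3 was not with the length trend removed (edgeR adjusted p = 0.104). Beside them, Hsp90b1 (log2 fold change -0.35 ± 0.24, edgeR adjusted p = 0.289) and Pdia6 (log2 fold change -0.02 ± 0.17, edgeR adjusted p = 0.949) did not pass the test, though Hsp90b1 did without AT2 library 3 (edgeR adjusted p = 0.0334). These genes were chosen for the element after their values were seen. The promoter of Hspa5, which encodes the chaperone BiP, is shown as an example at chr2:34771870-34772119 of GRCm38.p6 on the plus strand, 5′ to 3′ over the same window, with the ERSE in capitals.
Hspa5: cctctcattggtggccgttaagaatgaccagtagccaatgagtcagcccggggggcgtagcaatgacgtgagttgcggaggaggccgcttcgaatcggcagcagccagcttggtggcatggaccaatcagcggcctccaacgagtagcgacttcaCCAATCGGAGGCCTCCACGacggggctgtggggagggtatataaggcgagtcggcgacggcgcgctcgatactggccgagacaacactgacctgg
The element ends well before the start. Hspa5 had 703, 673, 936 and 1061 CPM in the LUAD libraries, against 1317, 1317 and 1145 CPM in the AT2 libraries, and Calr, the lectin chaperone calreticulin, had 785, 781, 1075 and 1149 CPM in the LUAD libraries, against 2089.7, 2014 and 1776 CPM in the AT2 libraries. Hspa5 stood close to the threshold (log2 fold change -0.58 ± 0.19, edgeR adjusted p = 0.0454) and was also not called without LUAD library 1, 2 or 3 (edgeR adjusted p = 0.0957, 0.0978 and 0.0649). Calr stood further from the threshold (log2 fold change -1.05 ± 0.18, edgeR adjusted p = 0.00359).

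Lysosome and autophagy genes stood lower in LUAD. Of 49 tested 19 were lower and 0 higher, with a median of -0.51, and leaving out any library kept the lower count within 1.5 times of this. Scarb2, a membrane protein that carries glucocerebrosidase to the lysosome, had 18.4, 21.8, 27.5 and 22.6 CPM in the LUAD libraries, against 180.3, 167 and 125 CPM in the AT2 libraries (log2 fold change -2.80 ± 0.21, edgeR adjusted p = 0.000104). Atg7, the enzyme that starts the conjugation steps of autophagy, had 24.6, 32.4, 25.1 and 27.3 CPM in the LUAD libraries, against 142, 152 and 87.3 CPM in the AT2 libraries (log2 fold change -2.22 ± 0.23, edgeR adjusted p = 0.000336). The palindrome CACGTG, the core of the element that the factor TFEB reads in lysosomal genes, was in 8 of 15 promoters of the lower members and 12 of 36 of all members, against 10.8% of the promoters of genes tested.

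The basement membrane, a sheet of laminin and type IV collagen joined by nidogen and perlecan, gave genes called in both directions, more of them lower. Of 18 members 10 were lower in LUAD and 3 higher, with a median log2 fold change of -1.84. Col4a1 and Col4a2, the chains of its main collagen, start head to head on chromosome 8 with annotated starts that overlap by 22 bases in RefSeq (GRCm38.p6). Col4a1 had 8.76, 5.25, 4.25 and 4.69 CPM in the LUAD libraries, against 1095, 1066 and 238 CPM in the AT2 libraries (log2 fold change -7.12 ± 0.60, edgeR adjusted p = 0.000148). Col4a2 had 2.52, 5.38, 4.14 and 4.86 CPM in the LUAD libraries, against 798, 741 and 141 CPM in the AT2 libraries (log2 fold change -7.05 ± 0.64, edgeR adjusted p = 0.000188). Both were lower in every LUAD library, and AT2 library 3 held less of each than AT2 libraries 1 and 2. Col4a5, a chain of a second collagen IV network, was lower as well, with 1.24, 2.19, 0.0538 and 0 CPM in the LUAD libraries, against 246, 244 and 24.4 CPM in the AT2 libraries (log2 fold change -7.54 ± 1.21, edgeR adjusted p = 0.0024). Laminin subunit Lamc1, perlecan (Hspg2) and agrin (Agrn) were lower too, with log2 fold changes of -2.96, -3.09 and -3.04 (edgeR adjusted p = 0.000347, 0.0011 and 0.00175), named after their values were seen. The linker protein Nid1, nidogen 1, went the other way with 58.9, 58, 41.8 and 46.7 CPM in the LUAD libraries, against 0.147, 1.1 and 3.1 CPM in the AT2 libraries (log2 fold change 5.49 ± 0.64, edgeR adjusted p = 0.000594). Fbln2, a fibulin that binds laminin and nidogen, had 791, 751, 324 and 352 CPM in the LUAD libraries, against 46.3, 29.3 and 10.9 CPM in the AT2 libraries (log2 fold change 4.23 ± 0.57, edgeR adjusted p = 0.00112), and LUAD libraries 1 and 2 held more of it than LUAD libraries 3 and 4. Npnt, a ligand of integrins, was the third member called higher (log2 fold change 0.86 ± 0.20, edgeR adjusted p = 0.0122), and was not called without AT2 library 2 (edgeR adjusted p = 0.0521).

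**Figure D4:**
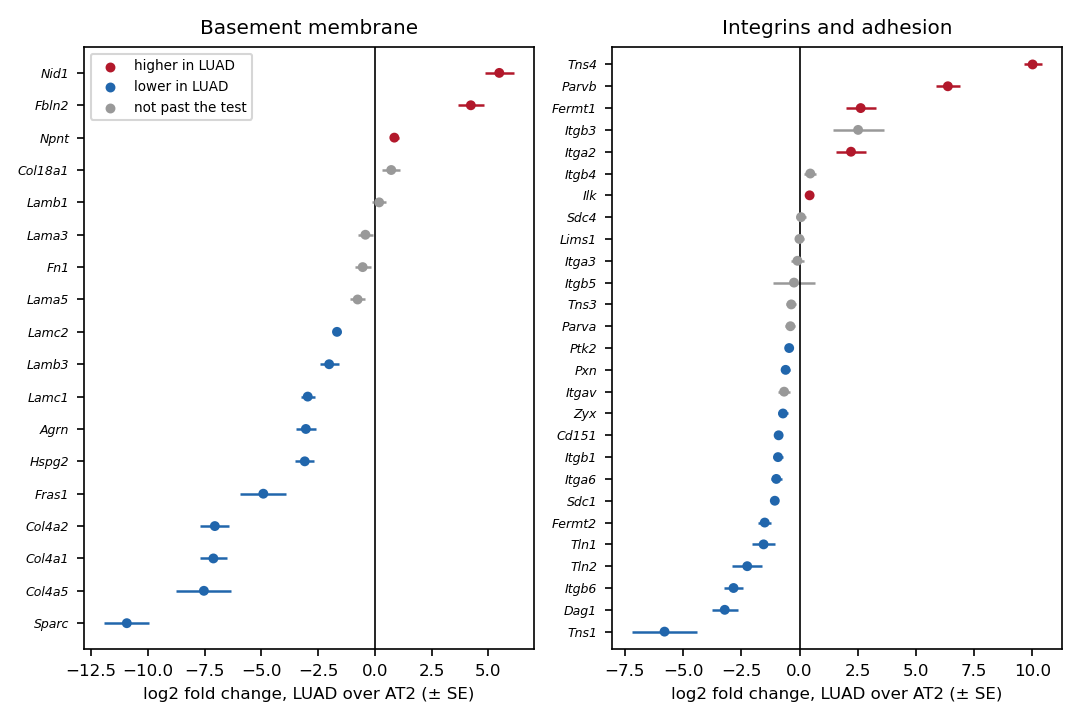
Log2 fold change of LUAD over AT2 with the SE derived from its test, for each tested member of the basement membrane list (left) and the integrin and adhesion list (right), on axes of different range. Red points are higher in LUAD, blue points lower, and grey points did not pass the test. The collagen IV chains lie far left, Nid1 and Fbln2 lie right, and Tns4 and Parvb lie far right of the other adhesion genes.

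Collagen is hydroxylated and folded in the ER before it is secreted, and the genes of these steps differed in opposite directions. Plod2, a lysyl hydroxylase, had 6.73, 6.41, 5.06 and 4.97 CPM in the LUAD libraries, against 55.8, 52.5 and 41.5 CPM in the AT2 libraries (log2 fold change -3.11 ± 0.24, edgeR adjusted p = 0.000105). P4ha1, a subunit of prolyl hydroxylase, had 18.2, 22, 37 and 39 CPM in the LUAD libraries, against 179, 197 and 135 CPM in the AT2 libraries (log2 fold change -2.55 ± 0.30, edgeR adjusted p = 0.000655). Serpinh1, the collagen chaperone HSP47, had 86.1, 89.2, 48 and 66.3 CPM in the LUAD libraries, against 3.83, 0.967 and 3.1 CPM in the AT2 libraries, so it was higher in each LUAD library while both hydroxylases were lower (log2 fold change 4.82 ± 0.49, edgeR adjusted p = 0.000302). Bgn, the small proteoglycan biglycan, had 375, 412, 207 and 198 CPM in the LUAD libraries, against 0, 0.83 and 1.55 CPM in the AT2 libraries (log2 fold change 8.88 ± 0.70, edgeR adjusted p = 0.000125). In all, 5 of 13 members of the interstitial matrix list were higher and 7 lower.

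Of 34 proteases and inhibitors of the matrix 19 were lower and 8 higher, with a median of -0.88. Timp3, an inhibitor of metalloproteinases bound to the matrix, had 1.4, 0.372, 1.45 and 0.169 CPM in the LUAD libraries, against 319, 305 and 169.6 CPM in the AT2 libraries (log2 fold change -8.26 ± 0.63, edgeR adjusted p = 0.000117). Mmp13, a collagenase, had 52.3, 42.9, 18.1 and 17 CPM in the LUAD libraries, against 0, 0.83 and 0 CPM in the AT2 libraries (log2 fold change 6.52 ± 0.94, edgeR adjusted p = 0.00145). Plat, the tissue plasminogen activator, had 107, 92.8, 107 and 99.4 CPM in the LUAD libraries, against 9.28, 5.25 and 14.4 CPM in the AT2 libraries (log2 fold change 3.46 ± 0.33, edgeR adjusted p = 0.00024). Mmp13 was at most a trace in AT2, and both proteases stood above every AT2 library in each LUAD library. Hgfac, which activates hepatocyte growth factor, was at 0 in AT2 and at least 147-fold higher (edgeR adjusted p = 0.000174).

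Adhesion to the matrix runs through integrins and the proteins that tie them to actin. Of 27 tested 13 were lower and 5 higher. Those lower numbered 8 without LUAD library 3, 8 without LUAD library 4, 7 without AT2 library 1 and 7 without AT2 library 2, and those higher numbered 3 without LUAD library 1, 3 without LUAD library 2, 3 without LUAD library 3, 3 without AT2 library 1 and 2 without AT2 library 2. Itgb6, a partner of integrin alpha V on epithelium, had 45.4, 35.2, 18.2 and 20.4 CPM in the LUAD libraries, against 274, 245 and 118 CPM in the AT2 libraries (log2 fold change -2.83 ± 0.40, edgeR adjusted p = 0.00136). Dag1, dystroglycan, a receptor of laminin, had 113, 115, 71.4 and 74.3 CPM in the LUAD libraries, against 1204, 1192 and 201 CPM in the AT2 libraries (log2 fold change -3.21 ± 0.55, edgeR adjusted p = 0.00318). Tns4, a tensin without an actin-binding part, had 273, 283, 242 and 227 CPM in the LUAD libraries, against 0.442, 0.138 and 0 CPM in the AT2 libraries (log2 fold change 10.02 ± 0.38, edgeR adjusted p = 4.94e-06). Parvb, a parvin that links integrins to actin, had 69.6, 70.1, 83.4 and 87.4 CPM in the LUAD libraries, against 1.77, 0.552 and 0 CPM in the AT2 libraries (log2 fold change 6.37 ± 0.53, edgeR adjusted p = 0.000147). Tns4 and Parvb were near 0 in each AT2 library, whereas Tns1, a longer tensin, was lower in LUAD (log2 fold change -5.80 ± 1.39, edgeR adjusted p = 0.0134), a call not made with the replicate block or with limma on TPM (edgeR and limma adjusted p = 0.0917 and 0.0611).

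Claudins, which set what a tight junction lets through, differed in opposite directions. In tight junctions 5 of 23 were higher and 7 lower. Lower were 4 without AT2 library 2 and 4 with all-transcript scaling. Cldn6, a claudin of embryonic epithelium, had 807, 873, 596 and 622 CPM in the LUAD libraries, against 9.43, 0 and 0 CPM in the AT2 libraries (log2 fold change 7.65 ± 1.10, edgeR adjusted p = 0.00142). Cldn2, a claudin that forms cation and water pores, had 88.3, 89.7, 73.4 and 66.6 CPM in the LUAD libraries, against 0, 1.24 and 0 CPM in the AT2 libraries (log2 fold change 7.22 ± 0.70, edgeR adjusted p = 0.000246). Cldn18, the main claudin of alveolar epithelium, had 2.93, 4.26, 4.46 and 5.14 CPM in the LUAD libraries, against 1800.1, 2104 and 486 CPM in the AT2 libraries. Claudins 2 and 6 were thus at or near 0 in AT2 libraries, and claudin 18 was a trace in LUAD libraries (log2 fold change -8.45 ± 0.57, edgeR adjusted p = 6.8e-05). Of 22 genes of adherens junctions and desmosomes 8 were lower and 3 higher. Lower were 5 without AT2 library 2. Cdh1, E-cadherin, had 292, 293, 225 and 236 CPM in the LUAD libraries, against 795, 728 and 444 CPM in the AT2 libraries (log2 fold change -1.33 ± 0.22, edgeR adjusted p = 0.0029), whereas Cdh3, P-cadherin, was higher (log2 fold change 1.24 ± 0.26, edgeR adjusted p = 0.00715).

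Keratins are the intermediate filaments of epithelium. In a list of 13 keratins, lamins and other filament genes 4 were higher and 4 lower. Its 8 keratins gave 3 higher and 4 lower, and the other higher member was the nuclear lamin Lmnb1. Krt8 had 2936, 2891, 2530.1 and 2759.6 CPM in the LUAD libraries, against 7906, 7921 and 10257 CPM in the AT2 libraries (log2 fold change -1.65 ± 0.15, edgeR adjusted p = 0.000182). Krt19 had 1839.8, 1733, 1639 and 1843 CPM in the LUAD libraries, against 3801, 3653 and 3336 CPM in the AT2 libraries (log2 fold change -1.03 ± 0.13, edgeR adjusted p = 0.000745), and Krt7 followed with a smaller difference (log2 fold change -0.68 ± 0.12, edgeR adjusted p = 0.00356). No library held less than 1639 CPM of Krt8 or Krt19. Krt20, a keratin of gut and urinary epithelium, had 149.5, 143, 185 and 174 CPM in the LUAD libraries, against 9.87, 9.94 and 9.7 CPM in the AT2 libraries (log2 fold change 4.05 ± 0.19, edgeR adjusted p = 1.16e-05), and Krt4, a keratin of stratified lining, was at 0 in AT2 and at least 51.9-fold higher (edgeR adjusted p = 0.00236). Among proteins that bind calcium, sugars or membranes, Lgals1, galectin 1, had 1098, 1153, 1264 and 1119.8 CPM in the LUAD libraries, against 41.7, 34.9 and 46.2 CPM in the AT2 libraries (log2 fold change 4.83 ± 0.18, edgeR adjusted p = 4.91e-06). Anxa1, annexin A1, had 1145, 1175, 1366 and 1334 CPM in the LUAD libraries, against 4709, 4817 and 5144 CPM in the AT2 libraries (log2 fold change -1.96 ± 0.13, edgeR adjusted p = 6.8e-05).

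Receptors of growth signals were called in both directions. Egfr, the receptor of epidermal growth factor, had 46.7, 49.4, 31.6 and 26.5 CPM in the LUAD libraries, against 0.737, 2.9 and 4.27 CPM in the AT2 libraries (log2 fold change 3.99 ± 0.55, edgeR adjusted p = 0.00121), and was the one gene higher among 13 of the ERBB list, where the feedback inhibitor Errfi1 was the one lower (log2 fold change -0.77 ± 0.14, edgeR adjusted p = 0.00403). Of 10 other receptor tyrosine kinases 3 were higher (Axl, Flt4 and Styk1) and 4 lower, among them Igf1r, Ddr1 and Ptk7. Axl, the receptor of Gas6, had 469, 458, 326 and 327 CPM in the LUAD libraries, against 13.3, 10.9 and 6.6 CPM in the AT2 libraries (log2 fold change 5.22 ± 0.30, edgeR adjusted p = 3.74e-05). Flt4, the receptor VEGFR3, had 31.9, 33.7, 26.2 and 28.8 CPM in the LUAD libraries, against 0.442, 0 and 0.388 CPM in the AT2 libraries (log2 fold change 6.89 ± 0.62, edgeR adjusted p = 0.000184). Igf1r, the receptor of insulin-like growth factors, had 24.2, 19, 13.1 and 13.7 CPM in the LUAD libraries, against 60.1, 41 and 35.7 CPM in the AT2 libraries (log2 fold change -1.38 ± 0.30, edgeR adjusted p = 0.0082). Igfbp3, which binds those factors outside the cell, had 225, 228, 289 and 293 CPM in the LUAD libraries, against 3.09, 0 and 0.776 CPM in the AT2 libraries, so the receptor was lower and the binding protein higher (log2 fold change 7.55 ± 0.73, edgeR adjusted p = 0.000252).

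Ephrins and their receptors, which signal by cell contact, gave 0 higher and 4 lower of 9 (higher count 2 with LUAD libraries 1 and 2 and AT2 libraries 1 and 2 alone and 1 with the length trend removed). Epha2 had 202, 189, 245 and 268 CPM in the LUAD libraries, against 1051, 1025 and 933 CPM in the AT2 libraries (log2 fold change -2.15 ± 0.17, edgeR adjusted p = 0.000117). The ephrin Efnb2 had 52.4, 41.6, 32.9 and 27.4 CPM in the LUAD libraries, against 117, 109 and 92 CPM in the AT2 libraries (log2 fold change -1.46 ± 0.24, edgeR adjusted p = 0.00278), and Epha4 was lower too (log2 fold change -1.39 ± 0.19, edgeR adjusted p = 0.000998). Among semaphorins and plexins 2 of 15 were higher and 5 lower. Their median log2 fold change was -0.32, and 0.01 with the length trend removed. Nrp1, a co-receptor of semaphorins and VEGF, had 1.98, 2.23, 4.46 and 5.14 CPM in the LUAD libraries, against 44.6, 41 and 50.1 CPM in the AT2 libraries (log2 fold change -3.71 ± 0.39, edgeR adjusted p = 0.00037). Its plexin partner Plxna1 had 21.3, 19.6, 9.95 and 6.83 CPM in the LUAD libraries, against 129.6, 134 and 47 CPM in the AT2 libraries (log2 fold change -2.85 ± 0.49, edgeR adjusted p = 0.00336). Sema4b, a membrane semaphorin, had 61.5, 68.4, 64.5 and 67.1 CPM in the LUAD libraries, against 6.19, 8.01 and 19.4 CPM in the AT2 libraries, above every AT2 library in each LUAD library (log2 fold change 2.62 ± 0.39, edgeR adjusted p = 0.00162).

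In the Wnt pathway 3 of 23 genes were higher and 8 lower, with a median log2 fold change of -0.55. With the length trend removed 6 were lower and the median was -0.30. Lower were 3 without LUAD library 3, 4 without LUAD library 4, 5 without AT2 library 1 and 4 without AT2 library 2. Wnt ligands are acylated by Porcn, carried to the surface by Wls and read by Frizzled receptors. Wnt10a, a ligand, had 153, 143, 119.7 and 139.7 CPM in the LUAD libraries, against 6.19, 9.11 and 16.7 CPM in the AT2 libraries (log2 fold change 3.77 ± 0.34, edgeR adjusted p = 0.000184). Porcn had 110.2, 125, 85.6 and 79 CPM in the LUAD libraries, against 17.2, 19.6 and 5.04 CPM in the AT2 libraries (log2 fold change 2.79 ± 0.42, edgeR adjusted p = 0.0018). Wls had 106, 96.6, 39.7 and 43 CPM in the LUAD libraries, against 433, 410.3 and 202 CPM in the AT2 libraries (log2 fold change -2.29 ± 0.42, edgeR adjusted p = 0.00462), and the receptor Fzd5 was lower as well (log2 fold change -2.13 ± 0.39, edgeR adjusted p = 0.00417). The ligand and its acylating enzyme were thus higher while the carrier was lower. Of 30 genes of PI3K and mTOR signalling 9 were lower and 3 higher (higher count 5 without AT2 library 3), with a median of -0.48 and, with the length trend removed, of -0.17. Eif4ebp1, which holds the cap-binding protein when mTOR is off, had 246, 253, 439.6 and 425 CPM in the LUAD libraries, against 125, 106 and 156 CPM in the AT2 libraries (log2 fold change 1.41 ± 0.28, edgeR adjusted p = 0.00577). Rheb, the GTPase that switches mTOR on, had 306, 274, 327 and 323 CPM in the LUAD libraries, against 157, 139.6 and 172 CPM in the AT2 libraries (log2 fold change 0.98 ± 0.15, edgeR adjusted p = 0.00175). Of the Notch list 3 of 14 were lower, with the receptor-cleaving proteases Adam10 and Adam17 among them, and 1, the target Nrarp, was higher (log2 fold change 4.30 ± 0.35, edgeR adjusted p = 0.000137). In the TGF-beta and BMP list Bmp7 led those higher (log2 fold change 7.90 ± 0.84, edgeR adjusted p = 0.00037), with the targets Id1 and Id2 (log2 fold change 3.66 ± 0.43, edgeR adjusted p = 0.000602 and log2 fold change 2.98 ± 0.32, edgeR adjusted p = 0.000392), and Tgfb2 led those lower (log2 fold change -7.72 ± 0.66, edgeR adjusted p = 0.00016).

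Ion transport genes stood lower. Of 26 channels, pumps and aquaporins 13 were lower and 4 higher. Higher were 2 without LUAD library 1, 2 without LUAD library 3, 2 without LUAD library 4, 2 without AT2 library 1 and 1 without AT2 library 2. Scnn1g, a subunit of the sodium channel that clears alveolar fluid, had 0, 0, 0 and 0.226 CPM in the LUAD libraries, against 526, 536 and 64.8 CPM in the AT2 libraries (log2 fold change -12.70 ± 1.13, edgeR adjusted p = 0.000181). Aqp5, a water channel of alveolar type 1 cells, had 3.18, 4.59, 9.47 and 9.15 CPM in the LUAD libraries, against 2562, 2699 and 1508 CPM in the AT2 libraries (log2 fold change -8.43 ± 0.50, edgeR adjusted p = 3.83e-05). Piezo1, a channel opened by stretch, had 17, 19.1, 16.4 and 15.9 CPM in the LUAD libraries, against 195, 198 and 56.7 CPM in the AT2 libraries (log2 fold change -3.14 ± 0.40, edgeR adjusted p = 0.000808). Ano1, a chloride channel opened by calcium, had 75.2, 76.1, 72.7 and 61.3 CPM in the LUAD libraries, against 384, 397 and 193 CPM in the AT2 libraries (log2 fold change -2.19 ± 0.25, edgeR adjusted p = 0.000557). AT2 library 3 held less of each of these than AT2 libraries 1 and 2, and each LUAD library less again. Kcnq1, a potassium channel of secretory epithelium, was higher, with 38.9, 36.4, 22.9 and 20.2 CPM in the LUAD libraries, against 4.57, 4.83 and 8.54 CPM in the AT2 libraries (log2 fold change 2.35 ± 0.39, edgeR adjusted p = 0.00262).

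Most mucin and defence genes that were measured stood higher. Of those tested, 7 of 10 mucin genes and 10 of 13 defence genes come from ORF lists of LUAD alone, against 55.8% of all genes tested. Of 10 mucins and mucin enzymes 8 were higher and 0 lower, with a median of 1.72. Muc20, a membrane mucin, had 71.7, 80.2, 62.4 and 56 CPM in the LUAD libraries, against 0, 0 and 1.16 CPM in the AT2 libraries (log2 fold change 8.40 ± 0.76, edgeR adjusted p = 0.000188). Gcnt1, which branches the sugars of mucins, had 9.46, 12, 14.1 and 10.6 CPM in the LUAD libraries, against 0 CPM in each AT2 library, at least 63.9-fold higher (edgeR adjusted p = 0.0008). Of 13 complement and defence genes 9 were higher and 1, the collectin Sftpd, was lower. C3, the central complement protein, had 168, 166, 72.1 and 70.8 CPM in the LUAD libraries, against 6.48, 7.18 and 8.15 CPM in the AT2 libraries (log2 fold change 4.05 ± 0.44, edgeR adjusted p = 0.000392). Cfb, complement factor B, had 11.3, 24.4, 13.3 and 19.5 CPM in the LUAD libraries, against 0 CPM in each AT2 library, at least 94.7-fold higher (edgeR adjusted p = 0.000694). LUAD libraries 1 and 2 held more C3 than LUAD libraries 3 and 4. Duoxa2, which matures the oxidase that makes hydrogen peroxide at the cell surface, had 10.6, 17.6, 31 and 28 CPM in the LUAD libraries, against 0 CPM in each AT2 library, at least 121-fold higher (edgeR adjusted p = 0.000875).

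Of 20 chemokines and cytokines, 14 of them from ORF lists of LUAD alone, 11 were higher and 3 lower, the growth factors Csf1 and Pdgfa among them, with a median of 1.48. Cxcl5, which attracts neutrophils, had 854, 894, 1057 and 927 CPM in the LUAD libraries, against 7.81, 5.39 and 27.2 CPM in the AT2 libraries (log2 fold change 6.24 ± 0.59, edgeR adjusted p = 0.000218). Csf3, the granulocyte growth factor, had 116, 106, 336 and 309 CPM in the LUAD libraries, against 1.03, 0.69 and 0 CPM in the AT2 libraries (log2 fold change 8.25 ± 0.77, edgeR adjusted p = 0.000206). LUAD libraries 3 and 4 held more Csf3 than LUAD libraries 1 and 2, and all held far more than any AT2 library. The macrophage and leukocyte markers given above were also higher in each LUAD library, and their part in these values was not tested. Cd14, a co-receptor of lipopolysaccharide, had 183, 172, 132 and 149 CPM in the LUAD libraries, against 6.78, 11 and 19.4 CPM in the AT2 libraries (log2 fold change 3.74 ± 0.36, edgeR adjusted p = 0.00024), and Il33, an epithelial alarmin, was higher (log2 fold change 5.17 ± 1.05, edgeR adjusted p = 0.0066).

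Transporters and sensors of iron and drugs split as well. Of 23 iron and metal genes 5 were higher, with Lcn2, which binds siderophores (log2 fold change 4.85 ± 1.07, edgeR adjusted p = 0.00933), and the metal reductase Steap1 (log2 fold change 4.06 ± 0.33, edgeR adjusted p = 0.000127) among them, and 6 were lower, led by the zinc carrier Slc39a8 (log2 fold change -3.64 ± 0.29, edgeR adjusted p = 0.000119). Of 23 ABC transporters and drug enzymes 7 were higher, led by the sterol exporter Abcg1 (log2 fold change 5.21 ± 0.95, edgeR adjusted p = 0.00416) and the drug exporter Abcb1a (log2 fold change 4.59 ± 0.46, edgeR adjusted p = 0.000291). Abcb1a and Abcb1b are related genes and may share some reads. The 7 lower ones were led by Abca3, the lipid carrier of surfactant bodies (log2 fold change -2.40 ± 0.26, edgeR adjusted p = 0.000392), and the lower count was 4 without LUAD library 1, 4 without LUAD library 3, 4 without LUAD library 4, 3 without AT2 library 1 and 4 without AT2 library 2.

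In several lists the shares lay near those of all genes tested, 19.1% higher and 18.1% lower. Among the lists above, 22.2% were higher and 25% lower for the pentose phosphate pathway and NRF2 response. These shares were 21.7% and 26.1% for iron and metal genes, and 19.2% and 23.1% for the TGF-beta and BMP list. Of 47 actin and motility genes 11 were higher and 10 lower. Higher were 5 without LUAD library 3, 5 without LUAD library 4, 5 without AT2 library 1 and 4 without AT2 library 2. Lower were 6 without LUAD library 3, 3 without AT2 library 1, 1 without AT2 library 2 and 5 with all-transcript scaling, and 16 with the length trend removed. Of 70 chromatin genes 12 were higher and 14 lower. Lower were 9 without LUAD library 3, 7 without LUAD library 4, 6 without AT2 library 1, 7 without AT2 library 2 and 8 with all-transcript scaling. The actin-capping protein Capg led the first list (log2 fold change 5.30 ± 0.55, edgeR adjusted p = 0.000337), and the deacetylase Hdac5 was among those lower in the second (log2 fold change -2.30 ± 0.53, edgeR adjusted p = 0.0117).

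Few splicing regulators of epithelium were called. Of 19 regulators of epithelial splicing 1 was higher and 3 lower, and the higher count was 2 without LUAD library 1 or AT2 library 3 and 5 with all-transcript scaling. Ptbp1, a splicing repressor, had 440.1, 419.6, 511 and 509 CPM in the LUAD libraries, against 247, 241 and 281 CPM in the AT2 libraries (log2 fold change 0.88 ± 0.15, edgeR adjusted p = 0.00291). Mbnl2, a muscleblind protein, had 16.4, 22.1, 20 and 13.1 CPM in the LUAD libraries, against 139.5, 97.9 and 82.3 CPM in the AT2 libraries (log2 fold change -2.57 ± 0.26, edgeR adjusted p = 0.00031), and Qk, the quaking protein, had 105, 95.2, 82.2 and 75.9 CPM in the LUAD libraries, against 335, 337 and 171 CPM in the AT2 libraries (log2 fold change -1.65 ± 0.25, edgeR adjusted p = 0.002). Esrp2, which maintains the epithelial splicing program, was lower by less (log2 fold change -1.0 ± 0.22, edgeR adjusted p = 0.0103).

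Transcripts of one gene were compared by their share of the gene's counts, among 3943 genes with at least a pair of transcripts retained. The shares differed in 53 genes (1.34%) by edgeR's test of differential transcript usage with gene-wise Benjamini-Hochberg adjustment, and 428 had an unadjusted p under 0.05. With the replicate number as a block 4 remained, Anapc5, Itga3, Myl6 and Tpm1. The largest change of share was over 20 percentage points in 34 of the 53, and the leading transcript differed between the kinds in 17. In 46 of the 53 a transcript was at 0 in all libraries of 1 kind. The uncertainty of dividing reads among similar transcripts is not part of these p-values. The level of the whole gene did not pass the test in 27 of the 53.

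Genes of the contractile cytoskeleton were among those with the firmest changes. Myl6, the essential light chain of non-muscle myosin, made its transcript ENSMUST00000164181 at 90, 88.2, 90.5 and 90.2% in the LUAD libraries, against 38.7, 40.3 and 55.6% in the AT2 libraries. Its transcript ENSMUST00000218127 held most of the rest in AT2, and both have a coding sequence of 456 bases (edgeR adjusted p for usage = 1.07e-10). The gene as a whole was not called (log2 fold change -0.36 ± 0.15, edgeR adjusted p = 0.0997), and was called lower by DESeq2 (DESeq2 adjusted p = 0.0479). Tpm1, a tropomyosin that coats actin filaments, made ENSMUST00000113697 at 69.1, 70.5, 66.9 and 67.6% in the LUAD libraries, against 27.8, 27.2 and 31.6% in the AT2 libraries. ENSMUST00000113695, with a coding sequence of 747 in place of 855 bases, held 18.3, 21.4, 23 and 23% in the LUAD libraries, against 40.6, 40.3 and 36.3% in the AT2 libraries (edgeR adjusted p for usage = 1.03e-07). Itga3, a laminin-binding integrin, made ENSMUST00000107739 at 48.3, 49.8, 49.2 and 25.6% in the LUAD libraries, against 0% in each AT2 library (edgeR adjusted p for usage = 1.3e-06). That transcript has a coding sequence of 3069 bases against 3162 in ENSMUST00000001548, which held nearly all counts in AT2. The level of Itga3 was not called (log2 fold change -0.09 ± 0.27, edgeR adjusted p = 0.819). Tpm1 and Cttn were chosen after their values were seen. Cttn, cortactin, a protein of branched actin, made ENSMUST00000033407 at 85.7, 87.3, 90 and 82.9% in the LUAD libraries, against 58, 61.3 and 62.3% in the AT2 libraries (edgeR adjusted p for usage = 0.0133), a call not made with the replicate block. The shorter coding sequence was the larger part in both kinds, and more so in LUAD.

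**Figure D5:**
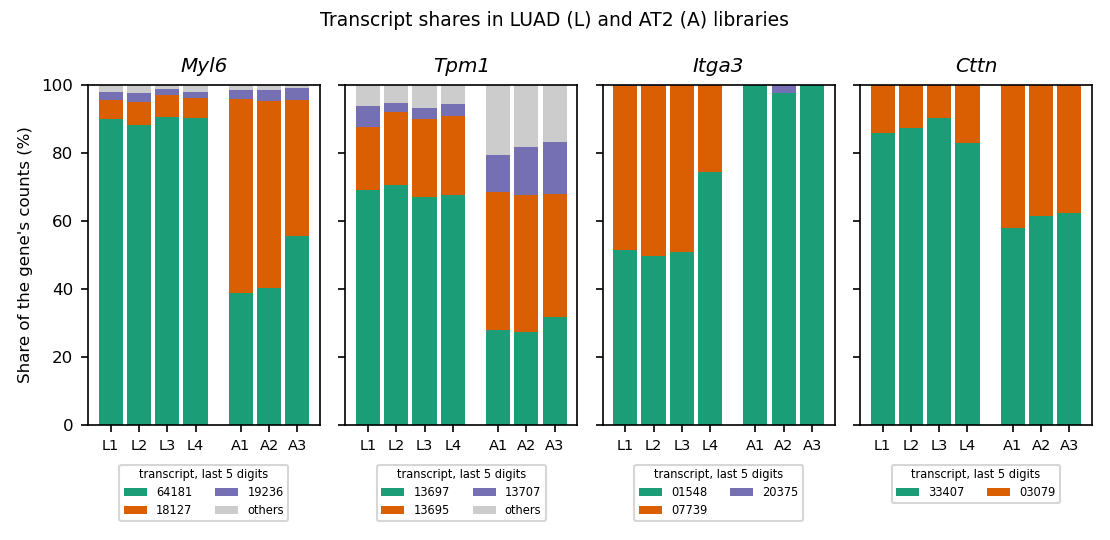
Share of each gene's counts held by its transcripts, in percent, in LUAD libraries L1 to L4 and to their right AT2 libraries A1 to A3, for Myl6, Tpm1, Itga3 and Cttn, with colours for transcripts by the last digits of their identifiers. The first transcript of Myl6 holds from 88.2 to 90.5% of the counts in LUAD libraries and from 38.7 to 55.6% in AT2 libraries, and the second transcript of Itga3 is seen in LUAD libraries alone.

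Other genes changed share on fewer counts. Tjp3, a tight junction scaffold, made ENSMUST00000045744 at 99.7, 98.9, 69.6 and 100.0% in the LUAD libraries, against 0% in each AT2 library (edgeR adjusted p for usage = 0.0242). Arhgap22, a GTPase-activating protein of Rac, made ENSMUST00000111956 at 67, 64.8, 61 and 57.4% in the LUAD libraries, against 0% in each AT2 library (edgeR adjusted p for usage = 0.00486). Neither transcript was seen in AT2, where these genes had as few as 91 and 74 counts in a library, and neither call was made with the block. Aqp5 and Myh14, both lower in LUAD, lost a transcript from view there, on a mean of 132 and 711 counts of the gene in a LUAD library.

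Single transcripts were tested as well, whether or not an ORF list names their gene. Of 29481 tested, 2964 (10.1%) were called, 1962 higher and 1002 lower in LUAD, and with the replicate block 923. The excess of higher calls was smaller with DESeq2 size factors, 1434 higher and 1173 lower. Among transcripts with a mean of at least 50 counts 1593 were higher and 1203 lower. Of the 2964 called, 1824 belong to the genes measured. Their gene was called the same way for 1561, was not called for 251 and was called the other way for 12. Transcripts of one gene were called in opposite directions in 12 genes, among them Myl6 and, chosen after their values were seen, the tropomyosins Tpm1 and Tpm3 and the myosin Myo18a. Without LUAD library 4 the number of transcripts called fell to 1262, the lowest among single libraries left out.

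Among the genes measured, those named in the ORF lists, the most abundant RNAs per length were largely shared. RNAs outside these lists were not ranked. By mean TPM, a level corrected for transcript length, 7 of the 10 genes highest in LUAD were also among the 10 highest in AT2. S100a11, a calcium-binding protein of epithelium, stood first in LUAD with 13009 ± 1312 TPM in LUAD (SD, n = 4) and 6674 ± 741 TPM in AT2 (SD, n = 3), and was called higher (log2 fold change 1.03 ± 0.21, edgeR adjusted p = 0.00746). Clu, the secreted chaperone clusterin, stood first in AT2 with 7611 ± 4399 TPM in LUAD (SD, n = 4) and 8928 ± 1170.0 TPM in AT2 (SD, n = 3), and was not called (log2 fold change -0.19 ± 0.36, edgeR adjusted p = 0.696). Ftl1, the ferritin light chain, had 5104 ± 565 TPM in LUAD (SD, n = 4) and 8879 ± 621 TPM in AT2 (SD, n = 3) and was called lower (log2 fold change -0.71 ± 0.13, edgeR adjusted p = 0.00378).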

How the data were processed

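RNA was measured in 4 LUAD and 3 AT2 organoid libraries, grouped by their titles, and the sources used here do not say how these libraries were prepared. Each deposited table held the estimated count and the TPM, a level corrected for length, of 118489 transcripts. Per the submitters' processing notes they came from kallisto. Its version and the transcript release are not given in these sources. Per the file headers, the tables also hold transcript length and effective length, and the authors' ORF tables hold transcript identifiers, gene names and coding lengths. Footprint tables were not used here. An estimated count divides reads among similar transcripts, so near-identical copies and minor transcripts are uncertain, and overlapping genes can share reads.

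The deposited estimated counts were added up per gene, rounded and tested in R 4.3.3 with edgeR 4.0.16 (filterByExpr, TMM, robust quasi-likelihood fit, two-sided, Benjamini-Hochberg adjusted p under 0.05 over every gene tested). Single transcripts were tested the same way over all transcripts. Transcript usage was tested with edgeR's diffSpliceDGE and Simes p-values per gene. Alternatives used DESeq2 1.42.0, limma 3.58.1 on log2(TPM + 1), other scalings and filters, a replicate block, library sets and libraries left out. A gene with no count in a kind of organoid was given a floor of 3 counts over that kind's libraries together, which covers counting error only.

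No libraries were duplicates, since the lowest mean chi-square per gene between libraries of a kind was 10.6. Same-numbered LUAD and AT2 libraries deviated together from their kind's mean, with correlations of 0.193, 0.157 and 0.249 over genes for numbers 1 to 3, and the replicate block pairs them. The labels do not give this pairing. Other pairs within the library sets correlated about as much, LUAD library 1 with AT2 library 2 at 0.178, LUAD library 2 with AT2 library 1 at 0.157 and LUAD library 4 with AT2 library 3 at 0.240. The values thus did not single out the same-numbered pairs. Deviations from a kind's own mean place AT2 library 3 opposite AT2 libraries 1 and 2 in part by construction, so these correlations are not independent of each other. On simulated counts the gene test recovered 21% of genes changed 2-fold and 81% of genes changed 4-fold, with 5 false calls among 6904 genes. The transcript test recovered 17% of transcripts changed 4-fold and 46% changed 32-fold, with 2 false calls among 25895 transcripts. The usage test recovered 0% and 29% of the 100 genes changed at each fold, with 10 false calls among 3601 genes. In the simulation false calls were thus a larger part of the usage calls than of the gene or transcript calls.

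Genes were named by rule: the 15 largest differences per direction among called genes with a mean of at least 50 counts and no overlap between kinds, the 10 highest by TPM per kind, up to 4 called members per direction of each gene list, any member of a list with at most 15 tested, the 15 largest usage changes, and a few reference genes. Genes and the lists they come from were chosen with earlier results of these data known. Promoters and the order of genes on the chromosome are from RefSeq (GRCm38.p6).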

Additional observations from a re-analysis of the deposited data

Results flagged for a closer look

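Of 155 genes given with values, checked in the 4 LUAD libraries, 3 had 1 library far from the other LUAD libraries. Chance alone marks about 1 in 20 such groups. Trp53 was at 4.06 CPM in LUAD library 4 and at 0 in LUAD libraries 1 to 3. Ldhb was at 3.31 CPM in LUAD library 2 and at most 0.33 CPM in the other LUAD libraries. Scnn1g was at 0.226 CPM in LUAD library 4 and at 0 in the others. Each of these values lay below every AT2 library, and the 3 AT2 libraries are too few for the same check.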

How the results depend on the processing

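The gene calls, 1322 higher and 1253 lower of 2575, stayed within 1.5 times under the other scalings, filters and tests run, thinned depth, the library set as a term and the replicate block (2609, with 1418 higher and 1191 lower, 2233 of them shared with the fit without it). They moved to 4052 (2085 higher and 1967 lower) with LUAD libraries 1 and 2 and AT2 libraries 1 and 2 alone, and to 1063 (513 and 550) over genes listed in both kinds of ORF table, where fewer genes were tested. With a library left out they ranged from 1632 to 3357 (840 to 1772 higher, 792 to 1585 lower). Single transcripts moved from 2964 to 923 with the replicate block (608 higher and 315 lower), were 3557 with the library set as a term (2398 higher and 1159 lower), and ranged from 1262 to 3951 with a library left out (719 to 2606 higher, 415 to 1345 lower). Usage calls moved from 53 to 121 with an F test per gene, to 239 with limma on log2 shares and to 4 with the replicate block, were 43 with the library set as a term, and ranged from 34 to 93 with a library left out. The causes of these moves were not tested. Of 472 genes covered by the naming rule 383 were called, and 279 of these were called the same way under every setting. Under 3 settings of single genes the direction reversed, all with LUAD libraries 1 and 2 and AT2 libraries 1 and 2 alone, where the log2 fold change was 0.34 for Clu, 0.30 for Tspan1 and -1.16 for Tspan15. The block changed no call of a gene's level described above other than those of Tns1 and Epcam. Depth limits low genes most in AT2 library 3, the shallowest.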
